A study of Arabidopsis thaliana with 4 samples.

Results

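The genes described here are the 18 serine/arginine-rich (SR) protein genes of Arabidopsis thaliana and 18 further splicing genes, 36 of the 27880 rows of the count tables. They were taken by locus identifier, from a list drawn up when earlier results of these data were known. The further genes are SR45, the U2AF subunits, the U1 snRNP genes U1-70K, U1A and PRP39, the U5 snRNP gene PRP8, the RNA-binding protein genes GRP7, GRP8, PTB1 and PTB2, and 5 genes of the Prp19-type (MOS4-associated) complex. Each identifier had a row of its own, and all 36 passed the filter on low counts, with at least 213 counts in every library.

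RNA was sequenced from embryos of the Col background at the early to mid-globular stage (32 to 64 cells), in 2 libraries of the serrate-1 mutant (se-1) and 2 libraries of the wild type. The sample titles word the stage differently, as early globular embryos for se-1 and embryos of 32 to 64 cells for wild type. Any difference in stage between these samples cannot be told apart from genotype. Both genotypes were grown in soil under a 16 h photoperiod at 22 °C, and cold treatment (4 °C, dark) of 4 days or more came first. The zinc-finger protein SERRATE (SE) takes part in the processing of microRNA precursors and in pre-mRNA splicing, and its se-1 allele keeps part of the function. The series calls the libraries biological replicates, but the labels do not say whether they came from separate plants, so p-values measure the spread between these libraries.

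Introns are removed by the spliceosome, which is built from the U1, U2, U4, U5 and U6 snRNPs. U1 binds the 5′ splice site, and the U2AF heterodimer binds the polypyrimidine tract and the AG of the 3′ splice site and helps U2 to bind the branch site. SR proteins carry RNA recognition motifs and a domain rich in arginine and serine. They bind exons and introns and contact U1 and U2AF, and many plant SR genes are themselves alternatively spliced into transcripts that are degraded. The counts are per gene, so they give the summed level of all transcripts of a gene and say nothing about which splice form was present.

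Libraries held 18580516 to 20882004 counts. Levels are given as CPM, counts relative to the library total multiplied by its TMM normalization factor (0.988 to 1.01). Fold changes compare se-1 with wild type and come from edgeR's quasi-likelihood test, with Benjamini-Hochberg adjustment over all 18714 genes tested at a threshold of 0.05. Of these genes 72.3% passed, 36.2% higher and 36% lower in se-1, so a pass was common for any gene. In se-1 short transcripts tended to be higher and long ones lower (Spearman's rho of log2 fold change and length -0.434 across coding genes, which are not independent), and RNA was amplified before sequencing, per the labels' protocols. A second value is therefore given after correction for transcript length, under which 36.2% of genes were higher and 30.6% lower. Whether the length trend is technical was not tested. All 8 embryo markers checked had counts in every library and summed to 1058.2 to 1124 CPM in se-1 and 1369 to 1439 CPM in wild type, with 4 higher, 3 lower and 1 not passing. DRN (3.35-fold), WOX2 (2.55-fold), WOX9 and DRNL were higher, WOX8 (2.89-fold), ATML1 and MP were lower, and LEC1 did not pass. After the correction for length ATML1 and MP did not pass, and DRNL and LEC1 were lower. The 9 endosperm markers summed to 80.7 to 81.7 CPM in se-1 and 97.2 to 105 CPM in wild type, with MEA, IKU2, MINI3 and AGL36 under 1 CPM in every library and IKU2 at 0 in both se-1 libraries. Of these 9, PHE1 (7.45-fold) and AGL62 were higher, FIS2 (5.93-fold), FWA and ZOU were lower, MEA did not pass and 3 were not tested. The 7 seed coat markers summed to 197 to 200.1 CPM in se-1 and 124 to 138 CPM in wild type. Of these, BAN (126 ± 2.0 against 83.5 ± 4.7 CPM), TT10, TT12 and TT8 were higher, STK was 2.2-fold lower and TT2 and TT16 did not pass. The part of these tissues in the results was not tested, and in bulk samples fewer cells of a type and less RNA per cell cannot be told apart.

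In se-1 embryos 16 of the 36 splicing genes were higher, 10 were lower and 10 did not pass. The share that passed, 72.2%, is that of all genes (72.3%), so the number of changed genes does not set the list apart. The median log2 fold change was 0.07 over the list and 0.00 over all genes tested. At least 2-fold changes were fewer. SCL28, SR34, SR34a and PTB2 rose by at least 2-fold (4 of 36, where 14.7% of all genes did), and GRP7 fell by at least 2-fold (1 of 36, where 9.90% of all genes did). The genotypes did not overlap in CPM for 28 of the 36 genes (77.8%, against 85.5% of all genes). After length correction 18 genes were higher and 9 lower, 27 of 36, where 66.7% of all genes passed. Of the 26 calls, 20 held with the same sign, while SCL30, U2AF35a, MAC3B and SKIP no longer passed and PRP8 and CDC5 passed in the opposite direction.

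**Figure D1:**
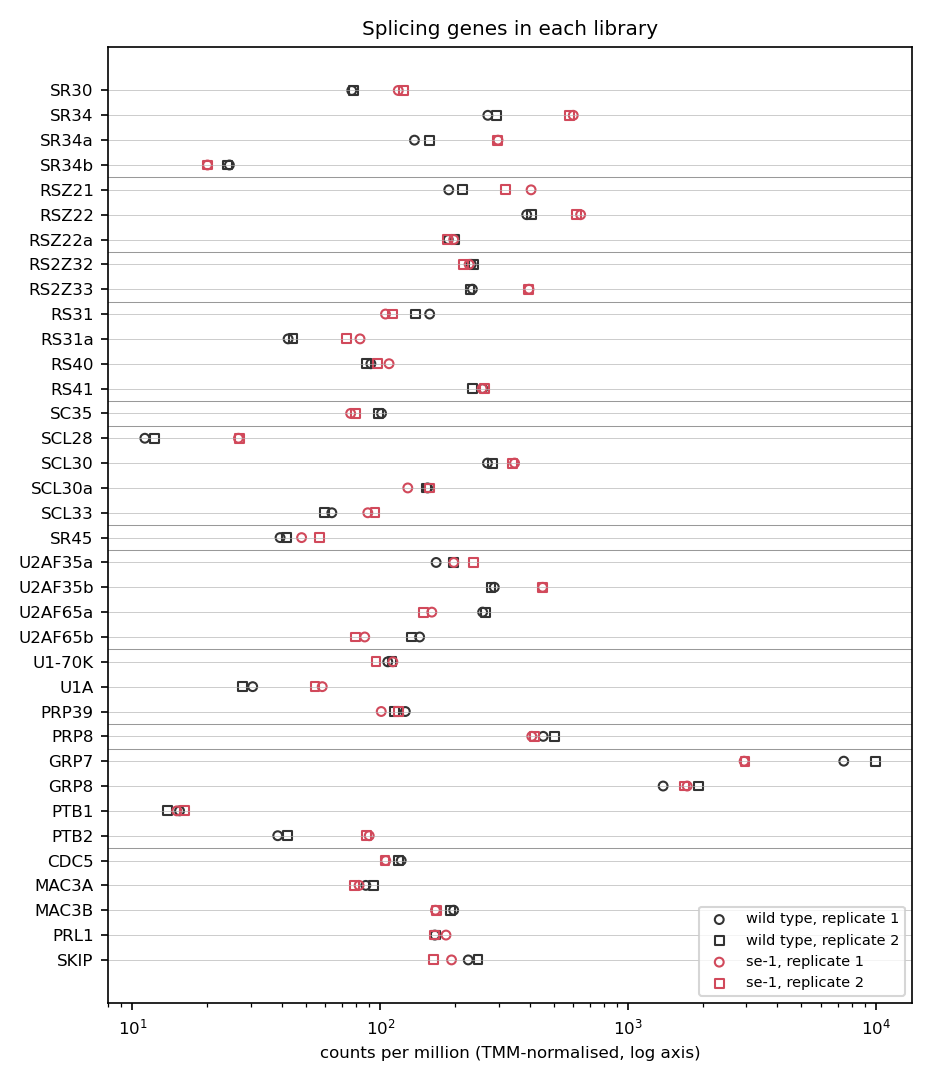
Level of each splicing gene in each library, in TMM-normalised CPM on a log axis, with wild type in dark and se-1 in red symbols and replicates 1 and 2 as circles and squares. GRP7 stands far above the other genes in wild type, at 7411 and 9949 CPM, and is at 2936 and 2960 CPM in se-1.

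**Figure D2:**
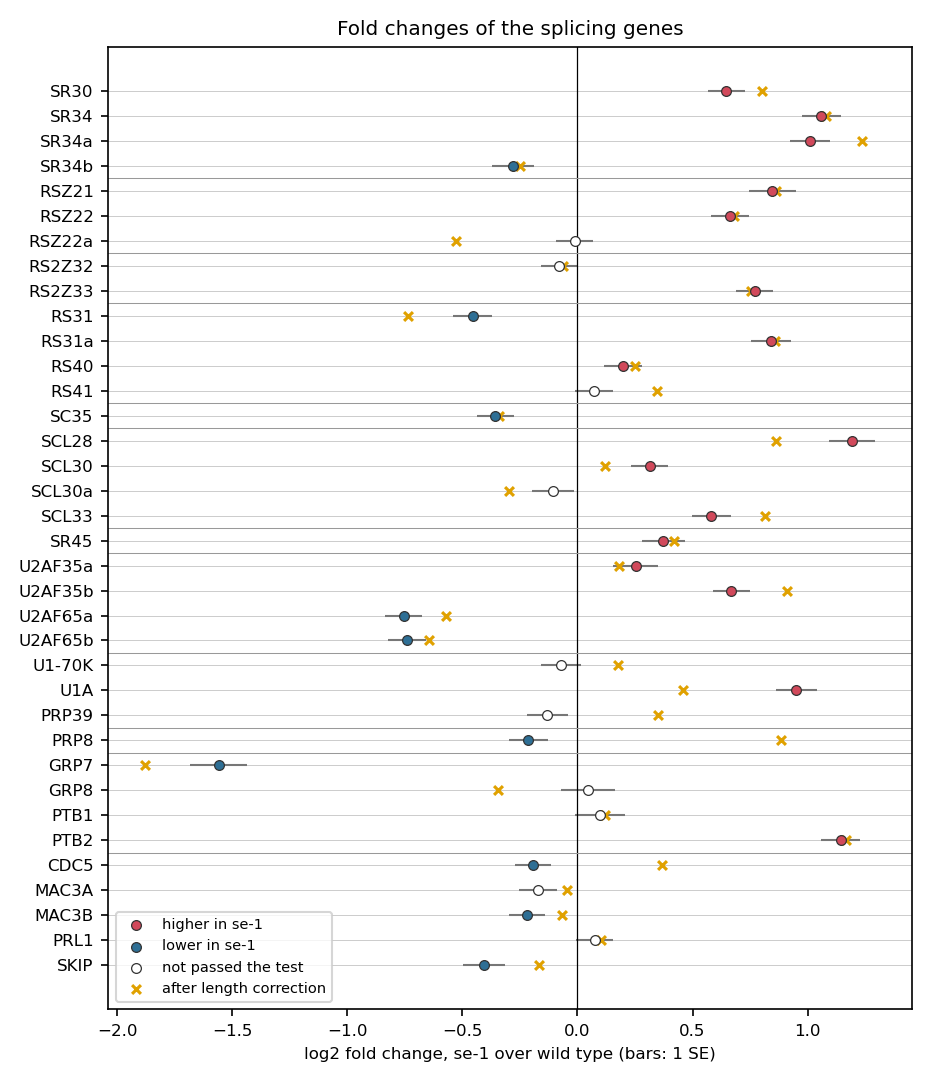
Log2 fold change of each splicing gene, se-1 over wild type, with bars of 1 standard error, and the value after length correction as crosses. Filled points passed the test in the direction named, and open points did not pass. PRP8 and CDC5 lie below 0 and their crosses above it.

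The SR protein genes were on balance higher. Of the 18, 11 rose (61.1%, against 36.2% of all genes), 3 fell (16.7%, against 36%) and 4 did not pass, with a median log2 fold change of 0.45. Summed over the 18 genes, se-1 libraries had 4132 and 4002 CPM and wild-type libraries 2897 and 2958 CPM, 1.39-fold more in se-1. After length correction 11 SR genes rose (61.1%, against 36.2% of all genes). Then 5 of the 18 fell, a share close to the 30.6% of all genes. The median log2 fold change was then 0.51, against 0.05 over all genes. No test of the list as a whole was made.

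The SR subfamily resembles the human splicing factor SRSF1 (ASF/SF2). SR34 (AT1G02840), its most abundant member per length, stood at 600.4 and 581 CPM in se-1 and at 271 and 295 CPM in wild type. Both se-1 libraries were far above both wild-type libraries, a 2.08-fold rise (log2 fold change 1.06, SE 0.084, adjusted p = 2.2e-09, edgeR). SR34a (AT3G49430) stood at 298 CPM in both libraries of se-1, against 137 and 158 CPM in wild type, a 2.02-fold rise. SR30 (AT1G09140), which in Arabidopsis is known to change the splicing of its own transcript and of others, rose 1.57-fold, from 77.4 ± 0.98 to 121 ± 4.3 CPM (SD, n = 2). SR34b (AT4G02430) was the exception. It stood at 20.1 CPM in both libraries of se-1, against 24.6 and 24.2 CPM in wild type, 1.21-fold lower (adjusted p = 0.011, edgeR). The call of SR34b was lost with DESeq2 (adjusted p = 0.10) and without wild type replicate 1 (adjusted p = 0.054).

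The RSZ and RS2Z subfamilies carry zinc knuckles beside the RNA recognition motif, and RSZ proteins resemble human SRSF7. RSZ22 (AT4G31580), the SR gene with the highest level per length in wild type, stood at 643 and 617 CPM in se-1 and at 390 and 406 CPM in wild type (1.58-fold higher, log2 fold change 0.66, SE 0.083, adjusted p = 9.2e-07, edgeR). RSZ21 (AT1G23860) rose 1.80-fold and RS2Z33 (AT2G37340) 1.70-fold. Their relatives RSZ22a (AT2G24590), at 192 ± 7.7 against 194 ± 8.6 CPM, and RS2Z32 (AT3G53500), at 222 ± 8.1 against 235 ± 3.5 CPM, did not pass. After length correction RSZ22a was lower (log2 fold change -0.53, adjusted p = 8.5e-06, edgeR). The annotation places exons of other genes on the opposite strand of RS2Z33, which has 1723 exon bases. Those of AT2G08865, which had no row of its own among the counts, overlap 446 of these bases. Those of AT2G37330, which had 2 to 6 counts per library against 4396 to 8247 of RS2Z33, overlap 41.

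The plant-specific RS subfamily was split. RS31 (AT3G61860) stood at 105 and 112 CPM in se-1 and at 158 and 139 CPM in wild type, a 1.37-fold fall (log2 fold change -0.45, SE 0.085, adjusted p = 1.0e-04, edgeR). RS31a (AT2G46610), its closest relative on the list, moved the other way, from 42.5 and 44.4 CPM in wild type to 82.8 and 72.8 CPM in se-1 (1.79-fold, adjusted p = 9.2e-08, edgeR). In neither gene did the genotypes overlap, and both calls held after length correction (log2 fold changes -0.73 and 0.86). The opposite strand of RS31a, which has 1805 exon bases, holds exons of other annotated genes. Those of AT2G09740, which had no row of its own among the counts, overlap 491 of these bases. Those of AT2G46600, which had 7 to 43 counts per library against 806 to 1547 of RS31a, overlap 35. RS40 (AT4G25500), whose protein is known to act with the microRNA machinery, was 1.15-fold higher at the edge of the threshold (adjusted p = 0.041, edgeR), and RS41 (AT5G52040) did not pass, at 260 ± 4.1 against 248 ± 16 CPM. RS41 was higher after length correction (log2 fold change 0.35, adjusted p = 8.6e-04, edgeR) but not with the median transcript length of each gene in place of the longest (0.085). The call of RS40 was lost with DESeq2 (adjusted p = 0.090), without the filter on low counts (0.068), and without se-1 replicate 1 (0.22), wild type replicate 1 (0.087) or wild type replicate 2 (0.21).

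SC35 (AT5G64200), the ortholog of human SRSF2, was 1.28-fold lower, at 75.9 and 79.7 CPM against 101 and 98.2 CPM (adjusted p = 5.8e-04, edgeR). The SC35-like (SCL) genes, which are plant-specific relatives, were higher or did not pass. SCL28 (AT5G18810) had the largest rise on the list before length correction. It stood at 26.8 and 26.9 CPM in se-1 and at 11.2 and 12.2 CPM in wild type, 2.29-fold higher (log2 fold change 1.19, SE 0.10, adjusted p = 5.0e-09, edgeR), or 0.86 on the log2 scale after length correction, below SR34a (1.24), PTB2 (1.17), SR34 (1.08), U2AF35b (0.91) and PRP8 (0.88). SCL33 (AT1G55310) rose 1.5-fold and SCL30 (AT3G55460) 1.24-fold, and SCL30a (AT3G13570) did not pass, with se-1 libraries at 129 and 158 CPM on either side of the wild-type values of 155 and 154 CPM. Without se-1 replicate 2, SCL30a was lower (log2 fold change -0.25, adjusted p = 0.021, edgeR), as it was after length correction (-0.30). The SR-like gene SR45 (AT1G16610), which bridges U1 and U2AF proteins and is a homolog of animal RNPS1, rose 1.30-fold from 40.6 ± 1.7 to 52.5 ± 6.2 CPM.

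The subunits of U2AF moved in opposite directions. U2AF35b (AT5G42820), a gene of the small subunit, stood at 452 and 451 CPM in se-1 and at 288 and 279 CPM in wild type, 1.59-fold higher (adjusted p = 5.5e-07, edgeR). U2AF35a (AT1G27650) was 1.19-fold higher, with se-1 libraries at 198 and 237 CPM and wild-type libraries at 168 and 197 CPM, so that the genotypes almost met. The large subunit, which binds the polypyrimidine tract, was lower from both of its genes. U2AF65a (AT4G36690) stood at 161 and 149 CPM in se-1 and at 259 and 265 CPM in wild type (1.69-fold lower, adjusted p = 1.3e-07, edgeR). U2AF65b (AT1G60900) stood at 86.5 and 79.6 CPM against 144 and 133 CPM (1.67-fold lower, adjusted p = 2.3e-07, edgeR). After length correction U2AF35b was at 0.91, U2AF65a at -0.57 and U2AF65b at -0.65 on the log2 scale, and all 3 passed. U2AF35a did not pass after it (0.18, adjusted p = 0.10, edgeR), nor without the filter on low counts, without se-1 replicate 2 or without wild type replicate 1 (adjusted p = 0.11, 0.31 and 0.30).

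Summed over both genes, the large subunit stood at 238 ± 13 CPM in se-1 and at 401 ± 3.0 CPM in wild type, and the small subunit at 669 ± 28 and 466 ± 14 CPM (SD, n = 2). The CPM ratio of large to small subunit genes was 0.382 and 0.332 in the se-1 libraries and 0.883 and 0.836 in the wild-type libraries, 2.41-fold lower in se-1. This ratio was chosen after the values were seen and has no test. The longest transcript of U2AF35b spans much of its locus, and the annotation has exons of 3 other genes on the opposite strand of its 2897 exon bases. Their overlaps were 177 nt (AT5G42810), 884 nt (AT5G06395) and 981 nt (AT5G42825), taken gene by gene, so the same bases may count more than once. Of those 3 genes AT5G42825 had 1 to 4 counts and AT5G42810 had 134 to 159 counts per library, against 5344 to 9418 counts of U2AF35b. The third, AT5G06395, had no row of its own among the counts. Of the 36 genes 7 had more than 100 nt of such overlap. For RS41 (518 nt) the gene on the other strand, AT5G52045, had 0 or 1 counts per library, and for U2AF35a (184 nt) AT1G27640 had 0. The gene opposite U1A (226 nt), AT2G09945, had no row of its own either. CDC5 (247 nt), described with its complex, is the seventh, and the part of such reads in the results was not tested.

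Among the snRNP genes, U1A (AT2G47580), whose protein binds a stem-loop of U1 snRNA, stood at 58.3 and 54.5 CPM in se-1 and at 30.6 and 27.8 CPM in wild type. Its 1.93-fold rise (log2 fold change 0.95, adjusted p = 1.9e-08, edgeR) fell to 0.46 on the log2 scale after length correction but still passed (adjusted p = 1.4e-04). U1-70K (AT3G50670), the U1 protein that SR proteins contact, did not pass, at 104 ± 12 against 109 ± 3.0 CPM. PRP39 (AT1G04080), a U1-associated protein, did not pass either, at 109 ± 12 against 120 ± 8.7 CPM. It was lower without se-1 replicate 2 (log2 fold change -0.25, adjusted p = 0.037, edgeR) and higher after length correction (0.35, adjusted p = 0.0017). PRP8 (AT1G80070, also SUS2), the large U5 protein at the catalytic centre, whose loss gives abnormal suspensors, stood at 408 and 419 CPM in se-1 and at 454 and 505 CPM in wild type, 1.16-fold lower (adjusted p = 0.031, edgeR). Its longest transcript has 7522 nt, the longest of the 36. After length correction PRP8 was higher, at 0.88 on the log2 scale (adjusted p = 1.9e-08), so its direction rests on how length is treated. The call of PRP8 was also lost without the filter on low counts (adjusted p = 0.060) and without se-1 replicate 1, se-1 replicate 2 or wild type replicate 2 (0.11, 0.053 and 0.30).

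The 5 listed genes of the Prp19-type complex, which joins the spliceosome as it becomes active, differed by at most 1.33-fold before length correction. SKIP (AT1G77180), a splicing factor that in Arabidopsis also acts on clock gene transcripts, was 1.33-fold lower, at 194 and 164 CPM against 226 and 248 CPM (adjusted p = 5.4e-04, edgeR). MAC3B (AT2G33340), a ubiquitin ligase of the Prp19 type, was 1.16-fold and CDC5 (AT1G09770), a MYB-related scaffold protein, 1.14-fold lower. MAC3A (AT1G04510, adjusted p = 0.065) and PRL1 (AT4G15900, adjusted p = 0.42), a WD-40 protein, did not pass. After length correction SKIP and MAC3B did not pass, and CDC5 was higher (0.37 on the log2 scale). On the opposite strand AT1G09780 overlaps 247 nt of CDC5 and had 414 and 451 counts in se-1 and 1082 and 932 in wild type, against 1965 to 2305 of CDC5. CDC5 was not called with DESeq2 (adjusted p = 0.063) or without any 1 of the 4 libraries, with adjusted p between 0.068 and 0.17. MAC3B lost its call without se-1 replicate 1, wild type replicate 1 or wild type replicate 2 (adjusted p = 0.056, 0.12 and 0.055).

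The largest difference on the list was that of GRP7 (AT2G21660), a glycine-rich RNA-binding protein that is under control of the circadian clock and binds its own transcript and that of GRP8, so that both are spliced into unproductive forms. GRP7 stood at 2936 and 2960 CPM in se-1 and at 7411 and 9949 CPM in wild type. Both se-1 libraries were below both wild-type libraries, a 2.94-fold fall (log2 fold change -1.56, SE 0.12, adjusted p = 2.1e-09, edgeR), or -1.88 on the log2 scale after length correction. GRP7 transcripts made up 0.295% and 0.296% of all counts in the se-1 libraries and 0.745% and 0.982% in the wild-type libraries. GRP8 (AT4G39260, also CCR1), its close relative, stood at 1730 and 1689 CPM in se-1 and at 1384 and 1926 CPM in wild type, and the se-1 values lay between the wild-type values (log2 fold change 0.05, SE 0.12, adjusted p = 0.73, edgeR). GRP8 was higher without wild type replicate 2 (log2 fold change 0.30, adjusted p = 0.031) and lower after length correction (-0.35, adjusted p = 0.010).

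The promoters of GRP7 and GRP8 are shown because the evening element, a clock-related motif, was found in these 2 promoters and in no other of the 36. The windows are the 250 bases before the annotated gene start in the RefSeq TAIR10.1 assembly, the RefSeq release of the TAIR10 genome. They are printed 5′ to 3′ on the strand of the gene, the minus strand in both, at chr2:9266558-9266807 and chr4:18275217-18275466. Capitals mark matches on either strand to AAAATATCT (evening element) and TGGGCC (the core of the site II element), which read AGATATTTT and GGCCCA on the other strand.
GRP7: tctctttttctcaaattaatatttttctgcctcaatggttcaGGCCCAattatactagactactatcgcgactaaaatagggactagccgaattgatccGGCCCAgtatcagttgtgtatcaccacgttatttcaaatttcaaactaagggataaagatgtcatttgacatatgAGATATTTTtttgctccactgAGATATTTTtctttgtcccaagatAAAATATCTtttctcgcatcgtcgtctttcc
GRP8: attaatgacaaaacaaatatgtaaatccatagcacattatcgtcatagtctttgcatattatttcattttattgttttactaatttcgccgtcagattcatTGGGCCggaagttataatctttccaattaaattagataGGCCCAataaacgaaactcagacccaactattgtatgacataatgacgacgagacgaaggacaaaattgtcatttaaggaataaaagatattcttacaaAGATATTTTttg

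GRP7 had evening elements beginning at positions -76, -55 and -31, counted back from the annotated start, and GRP8 had 1 at -12. Of 27443 promoters of coding genes 2.36% held AAAATATCT, and 13.7% held TGGGCC on either strand. Among the 36 splicing genes 18 (50%) held TGGGCC, namely 8 of the 16 that were higher, 5 of the 10 that were lower and 5 of the 10 that did not pass. The telo box AAACCCTAA was found in 2.61% of all promoters and in U1A alone on the list. A match describes these letters in this window and is not evidence of a bound site.

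PTB1 and PTB2 encode polypyrimidine tract-binding proteins, which compete with U2AF for pyrimidine-rich sequence. PTB2 (AT5G53180) stood at 90.2 and 88.0 CPM in se-1 and at 38.6 and 42.1 CPM in wild type, a 2.21-fold rise (log2 fold change 1.14, SE 0.084, adjusted p = 8.1e-10, edgeR). PTB1 (AT3G01150) did not pass, at 15.7 ± 0.81 against 14.6 ± 1.2 CPM. Both values were nearly the same after length correction (1.17 and 0.12 on the log2 scale).

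For genes with a near relative on the list, the share of the first gene in the counts of both does not depend on scaling between libraries. The shares are not corrected for transcript length. After length correction the log2 fold change of RSZ22 minus that of RSZ22a went from 0.68 to 1.21. For SR30 minus SR34 it went from -0.41 to -0.28, and for RS40 minus RS41 from 0.12 to -0.098. The transcripts of the 12 pairs compared shared no stretch of 50 nt. In 9 of the 12 pairs the shares of the genotypes did not overlap, where the CPM of 85.5% of all single genes did not. No such figure was computed for shares of other gene pairs, and SR34 is in pairs with both SR30 and SR34b. With 2 libraries per genotype an exact permutation test cannot go below p = 0.33, so these shares are a description, and their exact binomial 95% intervals cover counting error only. GRP7 made up 62.9% and 63.7% of GRP7 and GRP8 counts in se-1 and 84.3% and 83.8% in wild type. The wild-type libraries thus had nearly the same share (84.0% ± 0.34, SD, n = 2) although GRP7 differed 1.34-fold and GRP8 1.39-fold between them. RS31 made up 55.9% (95% interval 54.2 to 57.5) and 60.6% (59.0 to 62.1) of RS31 and RS31a counts in se-1, and 78.8% (77.5 to 80.1) and 75.8% (74.3 to 77.2) in wild type. RS2Z32 fell from 50.3% ± 0.78 of its pair with RS2Z33 in wild type to 35.9% ± 0.73 in se-1, and PTB1 from 26.7% ± 2.8 of its pair with PTB2 to 15% ± 0.88. RSZ22 went from 67.2% ± 0.33 to 76.6% ± 0.19 of its pair with RSZ22a, SR34 from 92.1% ± 0.52 to 96.7% ± 0.075 with SR34b, and SCL30a from 71.5% ± 0.89 to 60.8% ± 2.2 with SCL33. SR30 with SR34 and U2AF35a with U2AF35b differed less, from 21.5% ± 0.78 to 17.0% ± 0.83 and from 39.1% ± 3.2 to 32.5% ± 2.8. Shares overlapped between genotypes for U2AF65a and U2AF65b (65.4% ± 1.6 in wild type and 65.2% ± 0.078 in se-1), for MAC3A and MAC3B (31.7% ± 1.5 and 32.4% ± 0.81) and for RS40 and RS41 (26.6% ± 0.68 and 28.3% ± 1.9).

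**Figure D3:**
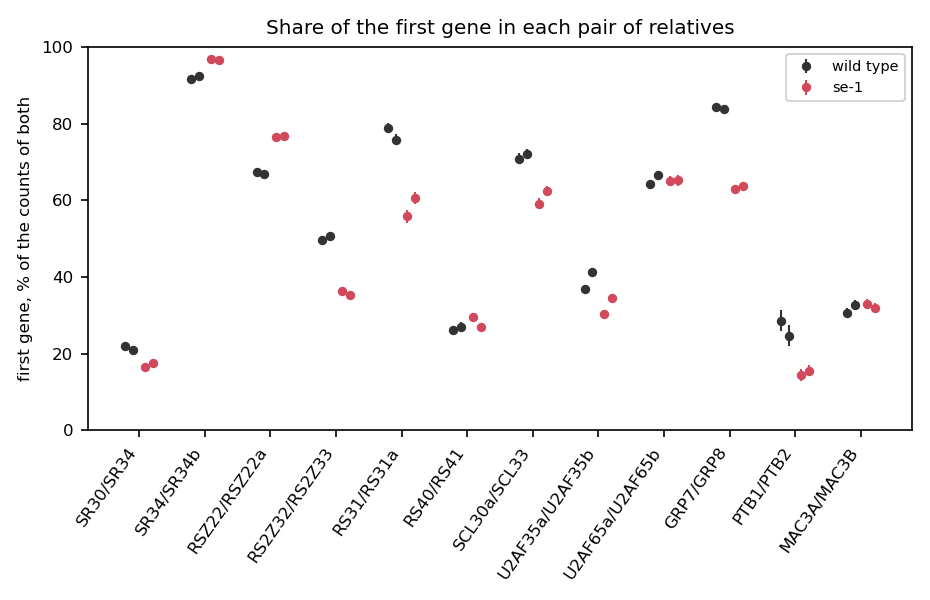
Share of the first gene of each pair in the counts of both genes, in percent, for each library, with exact binomial 95% intervals. GRP7 made up 84.3% and 83.8% of its pair in wild type and 62.9% and 63.7% in se-1, while the shares of U2AF65a and U2AF65b overlap.

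Levels of different genes were compared per kilobase of the longest annotated transcript (RPKM). In wild type GRP7 was highest at 7450.4 ± 1540.2 RPKM (SD, n = 2), 4.98 times GRP8 (1497 ± 347 RPKM) and 33.9 times RSZ22 (219.8 ± 6.5 RPKM). In se-1 GRP7 (2530.5 RPKM) was 1.64 times GRP8 (1547 RPKM). By median transcript length GRP7 and GRP8 stood at 8902 and 2399.9 RPKM in wild type and at 3024 and 2479 RPKM in se-1. The ratios of GRP7 to GRP8 therefore depend on the length used and were smaller by this one. RSZ22 and SCL30 (217 ± 7.4 RPKM) did not differ beyond their spread in wild type (by median transcript length they did, at 286 ± 8.4 and 217 ± 7.4 RPKM), and RSZ22a (194 ± 8.6 RPKM) followed, ahead of RS2Z33 (155 ± 2.5 RPKM) and SR34 (153 ± 9.0 RPKM), which did not differ beyond their spread either. At the lower end stood SR34b (12.6 ± 0.16 RPKM), SCL28 (10.12 ± 0.62 RPKM) and PTB1 (8.43 ± 0.68 RPKM). SR34 was at rank 7 of 36 in wild type and rank 4 in se-1, SR34a at ranks 22 and 11, and U2AF65b at ranks 19 and 28.

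**Figure D4:**
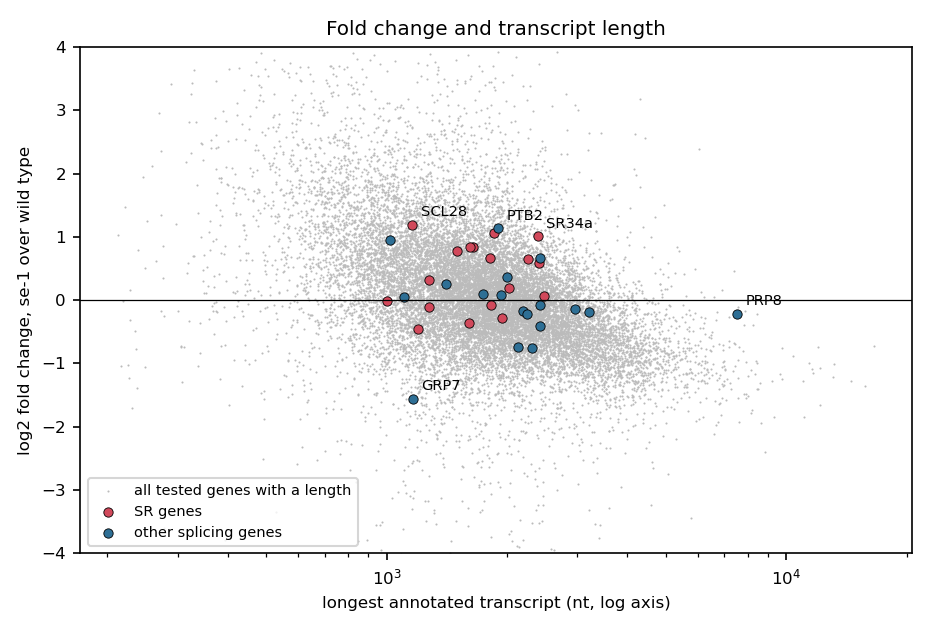
Log2 fold change of tested genes with an annotated length against that of their longest transcript on a log axis, with SR genes in red and the other splicing genes in blue. Points beyond the range of the axes and genes with the shortest transcripts are not drawn. GRP7, at 1165 nt, lies well below 0, and PRP8, at 7522 nt, is the longest transcript of the list.

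Across the 36 genes the Spearman correlation of log2 fold change with length was -0.197, a description over genes that share the same 4 libraries.

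Beyond these genes, 78 other spliceosome genes were followed, of which 77 were tested, 40 were higher, 26 were lower and 11 did not pass. These are 51.9% higher and 33.8% lower, against 36.2% and 36% of all genes, with a median log2 fold change of 0.23. After length correction 39 were higher and 15 lower, where 36.2% of all genes were higher and 30.6% lower. The genes of the small Sm proteins, which form the ring on snRNAs, were mostly higher (12 of 13, median log2 fold change 1.03), and so were those of the Sm-like LSm proteins (8 of 11, none lower, median 0.85). These transcripts are short, and after length correction the medians were 0.33 and 0.14, with 9 Sm genes higher and 2 lower and 5 LSm genes higher and 3 lower. The genes of the tri-snRNP (5 of 8 lower, 2 higher), of the catalytic and release steps (7 of 11 lower, 1 higher) and of the other subunits of the MOS4-associated complex (6 of 8 lower, 1 higher) were mostly lower. After length correction they stood at 3 lower and 3 higher, 1 lower and 5 higher, and 4 lower and 2 higher. In a mixed group of 7 genes, the protein kinase genes FC1, FC2, AME3 and SRPK4, the cyclin gene RCY1 and the SR-like gene SR45a were higher, with or without the correction, and PTB3, a relative of PTB1 and PTB2, did not pass in either. U1, U2 and branch site genes were split, with 7 of 14 higher and 6 lower, and 6 higher and 2 lower after the correction.

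Before length correction LSM5, LSM3B (4.12-fold), MAGO and LSM7 (3.23-fold) changed by more than GRP7, the most changed of the 36, and after it none did. LSM3B and LSM7 are named because of their values. LSM5 (AT5G48870, also SAD1), a subunit of the LSm ring of U6 snRNA, stood at 77.2 and 76.9 CPM in se-1 and at 12.6 and 10.6 CPM in wild type (6.64-fold higher, adjusted p = 5.0e-14, edgeR), or 1.85 on the log2 scale after length correction. MAGO (AT1G02140), a core protein of the exon junction complex, stood at 92.8 and 90.9 against 26.5 and 26.9 CPM (3.44-fold higher, or 1.13 on the log2 scale after length correction). SF1 (AT5G51300), which binds the branch site with U2AF65, fell from 116 CPM in both wild-type libraries to 40.1 and 44.7 CPM (2.72-fold lower, adjusted p = 3.6e-11, edgeR), or -0.78 after length correction. MOS4 (AT3G18165) was 2.06-fold lower (log2 fold change -1.31 after length correction) and STA1 (AT4G03430), a tri-snRNP protein, 2.27-fold lower (-0.35). Other rises were those of AT3G11500 (2.87-fold) among the Sm genes, U2B'' (2.51-fold), the SR protein kinase FC1 (1.65-fold), SMP1 (1.39-fold), emb1220 (1.37-fold) and MAC5A (1.18-fold). Other falls were those of ILP1 (1.63-fold), CBP80 (1.35-fold), the large subunit of the nuclear cap-binding complex that works with SE, and AT4G30330 (1.35-fold), another Sm gene. ILP1 and CBP80 did not pass after length correction, at -0.19 and 0.05 on the log2 scale.

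**Figure D5:**
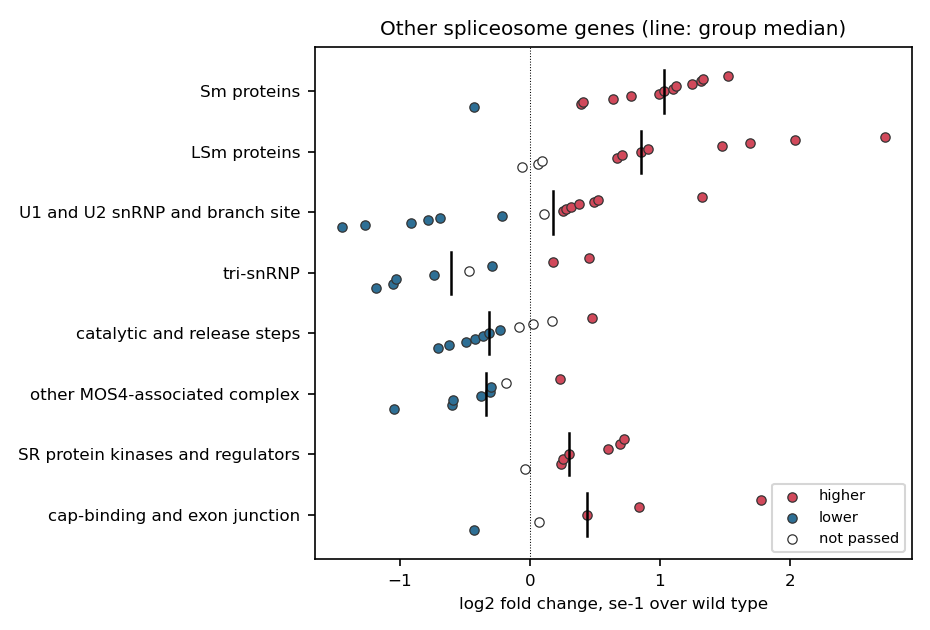
Log2 fold change of the 77 other spliceosome genes tested, by group, with filled points for genes that passed the test and a line at the median of each group. Sm genes have a median of 1.03 and genes of the tri-snRNP a median of -0.60.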

How the data were processed

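For each library the authors deposited a table of raw, unnormalized read counts per gene. TAIR10 is the build in the submitters' processing notes, which also list featureCounts, Cufflinks 2.2.1, HISAT2 2.0.5 and FastQC 0.11.5, with no role or order. Annotation release, strand setting and treatment of multiply mapped reads: not given in the sources used here. Per the labels' protocols, total RNA was amplified with the MessageAmp aRNA kit before TruSeq library preparation.

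In R 4.3.3 the counts were filtered (filterByExpr, by genotype), TMM-normalized and tested with the quasi-likelihood F-test of edgeR 4.0.16, two-sided and with no covariate. Standard errors are the absolute log2 fold change over the square root of F. RefSeq TAIR10.1 gave lengths for 27576 of 27880 rows, and 94 rows join several loci. For length correction, a natural spline (5 degrees of freedom) of each library's log2 CPM deviation on log length was used as an offset (18529 genes). Members, lists and tests were chosen with earlier results of these data known. Of the list of other spliceosome genes 3 identifiers were left out because their annotated product did not match, and those named are, per group, the largest called rise and fall at a mean of at least 5 CPM. All 36 members are named. Values in every library are given for members changed at least 2-fold, for pairs called in opposite directions and for the 3 highest per length, and for others chosen after their values were seen. The test was also run on simulated counts that had no length trend and few changed genes, unlike these data, and no result here rests on that run. Alternatives were DESeq2 1.42.0, its size factors, library size alone, limma-voom (limma 3.58.1), other filters, a replicate block, length corrections and leaving out each library. The length correction by median transcript was chosen after the data were seen.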

Additional observations from a re-analysis of the deposited data

How the results depend on the processing

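The counts of higher and lower splicing genes stayed within 1.5 times of 16 and 10 under every alternative run. Leaving out single libraries gave 14 to 16 higher and 7 to 10 lower, DESeq2 15 and 8, no filter 14 and 9, and length correction 18 and 9. Of the other spliceosome genes 26 were lower, and 15, 16 and 15 were lower with length correction, length correction with replicate block and length correction by median transcript. In that order, PRP8 reversed to 0.88, 0.89 and 0.91 on the log2 scale, CDC5 to 0.37, 0.37 and 0.42, PRP39 to 0.35, 0.35 and 0.33, U1-70K to 0.17, 0.17 and 0.054, and GRP8 to -0.35, -0.33 and -0.73. With 1 library left out, 4 genes that had not passed changed sign: RSZ22a ranged from -0.060 to 0.032, SCL30a from -0.25 to 0.037, U1-70K from -0.18 to 0.044 and GRP8 from -0.18 to 0.30. With the replicate block, 16 splicing genes were higher and 10 lower, 40 and 26 of the other spliceosome genes, and 6843 and 6840 of all genes, and it changed no call of the 36. Deviations of same-numbered libraries from their genotype means had a correlation of 0.03. This value cannot show whether same-numbered libraries were handled together, and the main test did not pair them. With the median transcript length the wild-type levels of GRP8 and RSZ22 were 2399.9 and 286 RPKM, and RSZ22 then stood above SCL30 beyond their spread. Lone libraries were assumed to vary like the other genotype. The cause of these changes was not tested.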

Other observations

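Within the LSm genes the rises were those of the shared subunits of both rings. All 8 genes of LSM2 to LSM7 rose, by 0.67 to 2.73 on the log2 scale. LSM8, which defines the nuclear ring on U6 snRNA, and LSM1A and LSM1B, which define the cytoplasmic ring of mRNA decay, did not pass, at log2 fold changes of 0.06 (SE 0.088), -0.06 (SE 0.088) and 0.09 (SE 0.082). After length correction 5 of the 8 were higher, and LSM8, LSM1A and LSM1B were lower (-0.63, -0.81 and -0.43, edgeR). The grouping was chosen after the values were seen and the difference between the groups was not tested.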
